A study of Mus musculus with 5 samples.

Results

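The genes described here are 8 readouts of the oxidative stress response driven by the transcription factor NRF2: Hmox1, Srxn1, Nqo1, Gclm, Gclc, Txnrd1, Slc7a11 and Prdx1. They were chosen with measured values of these same libraries in view, out of the 31055 genes counted in each library, and all 8 were detected in all 5 libraries. Their levels and the ratios between libraries are therefore given as a description with no test.

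NRF2, encoded by Nfe2l2, is a transcription factor that the adaptor KEAP1 holds in the cytoplasm and delivers to the ubiquitin ligase for degradation. Oxidants and electrophiles modify cysteines of KEAP1, NRF2 then accumulates, pairs with small MAF proteins and binds antioxidant response elements (ARE) in the promoters and enhancers of its targets, where the repressor BACH1 competes for the same sites until heme removes it. The targets degrade heme, make and use glutathione, and reduce oxidized thiols and quinones. In injured muscle, heme is released from myoglobin and from extravasated red cells, and infiltrating phagocytes produce oxidants.

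Single-cell RNA sequencing (scRNAseq) was performed on GFP+ cells sorted from skeletal muscle around the tibia of Prx1Cre;mTmG mice on a C57Bl/6 background, of either sex and aged 10 to 14 weeks, all groups carrying the same alleles. Prx1-Cre is active in the limb mesenchyme of the embryo, so GFP marks every descendant of that lineage and not one cell type. The 5 groups were uninjured muscle (d0), muscle 3 or 5 days after a non-stabilized tibial fracture (d3 and d5 fracture), and muscle 3 or 5 days after polytrauma (d3 and d5 polytrauma), in which the muscles next to the same fracture were also compressed with a hemostat. Each group was 1 library from 2 pooled mice, so no value below has a replicate, no group can be separated from its library, and every interval is a 95% exact interval that covers counting error only.

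The identity of 2 libraries was in doubt. The 5 matrices held 5653, 6229, 6915, 2001 and 13641 barcodes, and the deposited labels name them d0, d3 fracture, d5 fracture, d3 polytrauma and d5 polytrauma in that order. The cell totals that the study gives for d0, d3 fracture and d5 fracture match the first, the second and the fourth. The fourth is therefore called d5 fracture here and the third, by elimination, d3 polytrauma. Under the deposited labels these names change places: the ratios given for d3 polytrauma against d3 fracture become those of d5 fracture against d3 fracture, the ratios given for d5 polytrauma against d5 fracture become those of d5 against d3 polytrauma, and the reverse holds in each case. The comparison of d3 fracture with d0 is untouched.

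After cells with 350 to 8000 genes, under 20% mitochondrial UMIs and at least 1000 UMIs (unique molecular identifiers, counts of captured transcripts) were kept, the libraries held 1468 to 11941 cells with medians of 3640 (d0) to 34949 (d5 fracture) UMIs per cell. Levels are UMIs summed over the kept cells and scaled to the library total as counts per 1000000 (CPM). Of 5 markers of fibro-adipogenic and mesenchymal progenitors (FAP/MP), all were detected in all libraries, with summed levels of 933 to 2332 CPM, whereas the 5 myogenic markers together reached at most 3.72 CPM. The 9 hematopoietic markers summed to 18.0 to 115 CPM. The d0 and both d3 libraries as named here drew on 1 set of cell barcodes and both d5 libraries on another, so day and barcode set cannot be told apart. Among the d5 libraries 944 barcodes were shared.

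At d3, 3 of the members were far higher after polytrauma than after fracture alone. A gene was counted as changed when its level differed at least 2-fold, among genes with at least 5 CPM in at least 1 of the libraries compared. In d3 polytrauma against d3 fracture, 3 of 8 members were higher (Hmox1, Srxn1 and Slc7a11) and none was lower, where 1.91% of the 8473 genes compared were higher and 1.35% lower. The median log2 ratio was 0.80 over the members and -0.03 over all genes compared. In d5 polytrauma against d3 polytrauma the same 3 were lower and Gclm was higher, of 8, against 3.56% of all genes lower and 26.6% higher. These comparisons share the d3 polytrauma library, so a high value there enters both.

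The other comparisons moved different members. In d3 fracture against d0, Hmox1, Gclm and Gclc were lower, 3 of the 6 members that reached 5 CPM, and none was higher, where 30% of all genes were lower and 11.8% higher. Txnrd1 lay at the limit (1.995-fold lower, 1.89 to 2.10), and with median-of-ratios scaling the Gclm call was lost (log2 ratio -0.93). In d5 fracture against d3 fracture, Gclm was higher and Srxn1 lower, of 7 members, against 35.9% and 4.22% of all genes. In d5 polytrauma against d5 fracture no member of 7 passed 2-fold in either direction, against 1.43% of all genes higher and 7.78% lower. In d5 against d3 fracture each count thus rested on 1 gene. In d3 fracture against d0 the median log2 ratio was -1.25 over the members and -0.37 over all genes. The members' median was 0.47 in d5 against d3 fracture, 0.36 in d5 polytrauma against d5 fracture and -0.45 in d5 against d3 polytrauma. With so few members these counts and medians are a description. The median log2 ratio of all genes compared was -0.37, 0.61, -0.03, -0.03 and 0.48 for d3 fracture against d0, d5 against d3 fracture, polytrauma against fracture at d3 and at d5, and d5 against d3 polytrauma, and differences relative to it are named as such. With median-of-ratios scaling the balance of all genes shifted, to 25.3% higher and 16.8% lower for d3 fracture against d0 and 13.2% and 22.3% for d5 against d3 fracture. It became 3.27% and 5.35% for d5 polytrauma against d5 fracture and 12.2% and 9.33% for d5 against d3 polytrauma.

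**Figure D1:**
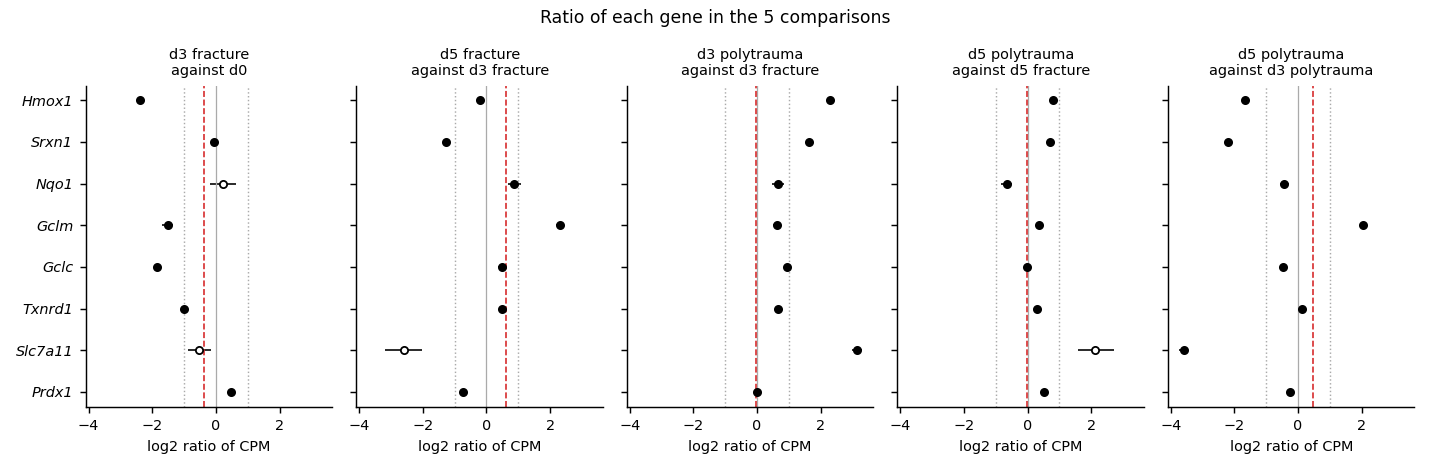
Log2 ratio of each of the 8 members in the 5 comparisons, with 95% exact intervals for counting error. Closed points had at least 5 CPM in 1 of both libraries and open points did not, dotted lines mark 2-fold, and the dashed line is the median of all genes compared. Slc7a11 (3.14), Hmox1 (2.28) and Srxn1 (1.64) lie beyond the upper 2-fold line for d3 polytrauma against d3 fracture, and all 3 lie beyond the lower one for d5 against d3 polytrauma.

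Hmox1 encodes heme oxygenase 1, the inducible enzyme that opens heme into biliverdin, iron and carbon monoxide (chr8:75093621-75100589, plus strand, GRCm38). Its level was 473 CPM (463 to 484) at d0, 89.7 (87.9 to 91.6) at d3 fracture, 436 (432 to 440) at d3 polytrauma, 78.6 (76.2 to 81.0) at d5 fracture and 137 (136 to 139) at d5 polytrauma. The d0 and d3 polytrauma libraries were thus high and close to each other, and the remaining 3 low. Hmox1 at d3 polytrauma was 4.86-fold the level at d3 fracture (4.75 to 4.97), which placed it at the 99.8th percentile of the genes compared. The fold between polytrauma and fracture was 1.75 (1.69 to 1.81) at d5. After fracture, Hmox1 was 5.28-fold below d0 at d3 (5.12 to 5.44), 2.03 below the median of all genes on the log2 scale. From d3 to d5 it was 3.18-fold lower after polytrauma (3.13 to 3.22), while after fracture its log2 ratio was -0.19. This value ran from -0.93 to 0.09 over the other scalings and cell filters, apart from the restriction to clusters named FAP/MP-like. In those clusters Hmox1 was lower at d5 fracture than at d3 fracture, 87.6 against 216 CPM.

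Its constitutive relative Hmox2, which is outside the NRF2 response, passed 2-fold in none of the 5 comparisons. Hmox2 was at 31.5 CPM at d0, 52.2 at d3 fracture, 44.5 at d3 polytrauma, 39.8 at d5 fracture and 49.8 at d5 polytrauma, and its d3 polytrauma to d3 fracture ratio was 0.852 (0.818 to 0.886). Ftl1 and Fth1 encode the ferritin light and heavy chains, which store the iron that heme breakdown releases. Ftl1 was at 6035, 3857, 5289, 1691 and 2301 CPM and Fth1 at 4085, 3587, 6007, 2581 and 2844 CPM in the order d0, d3 fracture, d3 polytrauma, d5 fracture, d5 polytrauma. Neither passed 2-fold between the d3 libraries. Both ferritin genes have near-identical pseudogenes, and reads that map to more than one place are not counted, so their levels are uncertain.

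Markers of other cells and of handling differed between these libraries, and of the 3 lists given here the hematopoietic one was higher with Hmox1 at d3 polytrauma. The hematopoietic markers summed to 30.4 CPM at d3 fracture and 115 at d3 polytrauma, and all 4 of those compared were higher, while Hmox1 at d3 polytrauma was 431 CPM without the cells that carried at least 2 hematopoietic markers. The 5 erythroid markers, hemoglobins among them, summed to 303 CPM at d0 against 40.1 at d3 fracture and 33.7 at d3 polytrauma. The 12 immediate early and heat shock genes, which respond to tissue digestion, summed to 20926 CPM at d0 and 5842 at d3 fracture, where 11 of 12 were lower, and to 3780 at d3 polytrauma. The part of red cell RNA, of digestion and of hematopoietic cells in these levels was not tested.

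**Figure D2:**
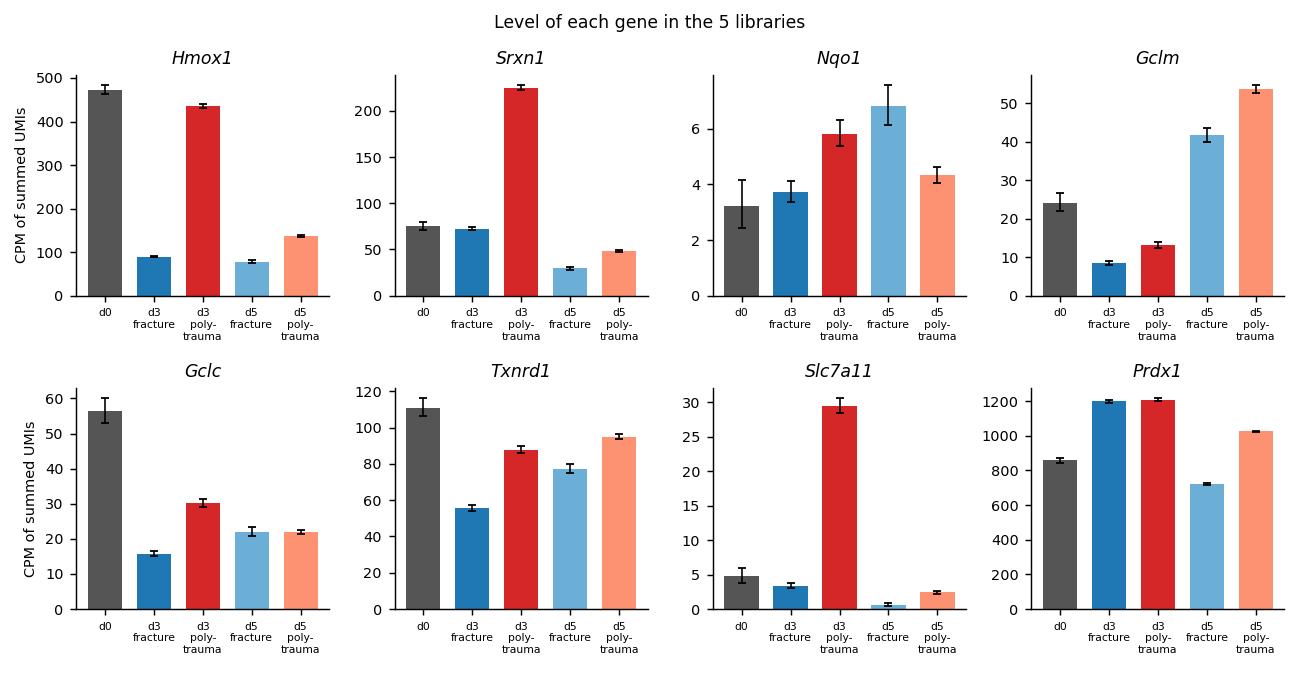
Bars give the level of each member in the 5 libraries, in CPM of summed UMIs on linear axes that start at 0 and differ between panels, with 95% exact Poisson intervals. Hmox1 is high at d0 and d3 polytrauma (473 and 436 CPM), Srxn1 and Slc7a11 peak at d3 polytrauma (225 and 29.5 CPM), and Gclm is highest at d5 (41.8 CPM after fracture and 53.8 after polytrauma).

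The thiol branch was divided. Srxn1 encodes sulfiredoxin, which restores over-oxidized peroxiredoxins (chr2:152105516-152111376, plus strand). It was at 75.4 CPM (71.3 to 79.5) at d0, 72.3 (70.7 to 74.0) at d3 fracture, 225 (222 to 228) at d3 polytrauma, 29.7 (28.2 to 31.2) at d5 fracture and 48.7 (47.7 to 49.6) at d5 polytrauma. Unlike Hmox1, Srxn1 at d3 polytrauma thus stood above every other library, 3.11-fold above d3 fracture (3.03 to 3.19) and 2.98-fold above d0 (2.82 to 3.16). Its d0 and d3 fracture levels were not distinguishable by counting error (ratio 0.960, 0.905 to 1.02). Srxn1 was lower by d5 after both injuries, 2.43-fold after fracture (2.30 to 2.57) and 4.62-fold after polytrauma (4.51 to 4.73).

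Prdx1, an abundant peroxiredoxin that removes hydrogen peroxide (chr4:116685544-116700822, plus strand), varied least. It was at 858 CPM at d0, 1199 at d3 fracture, 1209 at d3 polytrauma, 722 at d5 fracture and 1025 at d5 polytrauma, and at d3 the injuries differed by a ratio of 1.009 (1.001 to 1.017). Txnrd1, the cytosolic thioredoxin reductase that hands electrons from NADPH to thioredoxin (chr10:82833951-82897712, plus strand), was highest at d0. Its levels were 111 CPM at d0, 55.7 at d3 fracture, 87.9 at d3 polytrauma, 77.3 at d5 fracture and 94.96 at d5 polytrauma, a 1.58-fold excess of polytrauma at d3 (1.53 to 1.63) that did not reach 2-fold.

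The ARE core, TGACNNNGC on either strand, lay in the RefSeq promoter windows (GRCm38.p6, 250 bases before to 50 after each start) of 4 of the 6 members that had one, in 4 of their 8 windows, against 12.4% of 32851 promoters. Hmox1 and Gclc were not in that table. The matches, with 10 bases on each side and read on the strand of the gene, are printed because they mark where the members could share a sequence, and capitals mark the match, which in each case is the core on the opposite strand.
Srxn1, chr2:152105542-152105570, plus strand: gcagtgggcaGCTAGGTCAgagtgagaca
Prdx1, chr4:116685456-116685484, plus strand: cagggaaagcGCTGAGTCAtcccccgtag
Txnrd1, chr10:82859104-82859132, plus strand: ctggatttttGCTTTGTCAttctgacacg
Gclm, chr3:122245413-122245441, plus strand: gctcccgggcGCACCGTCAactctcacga
The Srxn1 match begins 28 bases after the start, and those of Prdx1, Txnrd1 (at 1 of 3 starts) and Gclm 133, 92 and 134 bases before it. The Srxn1 and Prdx1 windows each held 2 AP-1 sites (TGACTCA), which 5.202% of promoters hold, and the other windows held none. The Prdx1 ARE match overlaps an AP-1 site and the Srxn1 match does not. Prdx1, with a d3 ratio of 1.009, thus held a match as Srxn1 did, and the windows of Slc7a11 and Nqo1 held none. That says only that the core is not in these windows, since sequence farther from the start was not searched.

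Slc7a11 encodes the light chain of the cystine importer that feeds glutathione synthesis (chr3:49892526-50443614, minus strand). Its level was 4.82 CPM (3.84 to 5.96) at d0, 3.35 (3.00 to 3.73) at d3 fracture, 29.5 (28.5 to 30.6) at d3 polytrauma, 0.559 (0.374 to 0.803) at d5 fracture and 2.44 (2.23 to 2.67) at d5 polytrauma. Only the d3 polytrauma library was high, 8.80-fold above d3 fracture (7.86 to 9.88) and 6.12-fold above d0 (4.93 to 7.70). It was then 12.1-fold lower at d5 polytrauma (10.97 to 13.3), the largest decrease among the members. At d5 the level after polytrauma was 4.37-fold that after fracture (3.00 to 6.59), but both were under 5 CPM and d5 fracture had 29 UMIs.

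No ARE core lay in the Slc7a11 window. It held 2 matches to TGATGNAA, the letters of the element bound by the amino acid stress factor ATF4, which 3.97% of promoters hold. This motif and AP-1 were searched after the values were known. The matches, in capitals, begin 66 and 47 bases before the start, the first on the strand of the gene and the second on the opposite strand.
Slc7a11, chr3:50443662-50443689, minus strand: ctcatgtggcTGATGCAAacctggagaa
Slc7a11, chr3:50443643-50443670, minus strand: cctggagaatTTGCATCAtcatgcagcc
The windows of the other members held no ATF4 match, which says only that these letters are not in the window.

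Gclc and Gclm encode the catalytic and the modifier subunit of glutamate cysteine ligase, the first enzyme of glutathione synthesis, and did not move as a pair. Gclc (chr9:77754535-77794485, plus strand) was at 56.4 CPM at d0, 15.8 at d3 fracture, 30.2 at d3 polytrauma, 21.96 at d5 fracture and 21.9 at d5 polytrauma. It was 3.58-fold lower at d3 fracture than at d0 (3.30 to 3.88), and 1.92-fold higher at d3 polytrauma than at d3 fracture (1.81 to 2.04), a value next to the 2-fold limit. Gclm (chr3:122245557-122270732, plus strand) was at 24.2 CPM at d0, 8.48 at d3 fracture, 13.2 at d3 polytrauma, 41.8 at d5 fracture and 53.8 at d5 polytrauma. It was the only member past 2-fold higher at d5 than at d3, 4.92-fold after fracture (4.54 to 5.34) and 4.08-fold after polytrauma (3.85 to 4.32). Relative to the median of all genes these differences were 1.68 and 1.54 on the log2 scale. The d5 levels of Gclc after the injuries could not be distinguished (ratio 0.997, 0.934 to 1.06).

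Nqo1, a reductase that detoxifies quinones (chr8:107388225-107403206, minus strand), was low throughout. It was at 3.21 CPM at d0 (56 UMIs), 3.72 at d3 fracture, 5.83 at d3 polytrauma, 6.83 at d5 fracture and 4.34 at d5 polytrauma. The d0 and d3 fracture levels were not distinguishable (ratio 1.16, 0.873 to 1.56), and the polytrauma to fracture ratio was 1.57 at d3 (1.37 to 1.79) and 0.635 at d5 (0.561 to 0.721). The 4 chondrocyte markers summed to 2610 CPM at d5 fracture and to 80.2 to 288 CPM elsewhere. At d5 fracture most Nqo1 UMIs came from the clusters named chondrocyte-like, 45.2% and 28.8%, at 18.7 and 19.0 CPM. Without chondrocyte-like clusters Nqo1 was at 2.43 CPM at d5 fracture, and its log2 ratio to d3 fracture turned from 0.87 to -0.62, and that of d5 polytrauma to d5 fracture from -0.65 to 0.76. The removal of those clusters was added after the data were seen, and it changed no count of members past 2-fold.

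The high levels of d3 polytrauma were found in most clusters of that library and not in 1 alone. Each library was clustered on its own without the members, and 43 clusters held at least 50 cells. Hmox1 ran from 59.5 to 260 CPM over the 8 clusters of d3 fracture and from 260 to 774 CPM over the 8 of d3 polytrauma, where 7 lay above all of d3 fracture. For Slc7a11 the ranges were 0 to 22.2 and 24.5 to 70.0 CPM, so that all 8 lay above by point values. For Srxn1 they were 51.2 to 119 and 58.8 to 322 CPM, and 6 of 8 lay above. In the pericyte-like clusters the intervals of the d3 libraries overlapped for both genes. Slc7a11 was there at 22.2 CPM (13.2 to 35.1, 18 UMIs) after fracture and 24.5 (11.7 to 45.0, 10 UMIs) after polytrauma. Srxn1 was there at 54.3 CPM (39.5 to 72.9) after fracture and 58.8 (37.7 to 87.4) after polytrauma. The lowest Srxn1 clusters of d3 polytrauma were pericyte-like (58.8 CPM) and hematopoietic-like (59.5 CPM), whereas Hmox1 in the hematopoietic-like cluster was 614 CPM. That cluster held 3.85% of the cells, 1.66% of all UMIs and 2.34% of the Hmox1 UMIs.

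At d3 polytrauma Hmox1 was highest, 774 CPM (753 to 796), in a FAP/MP-like cluster led by Cox4i2, Selenbp1, Cox7a1, Mgarp and Egln3, genes that include mitochondrial subunits and the oxygen sensor Egln3. It was 666 CPM in the FAP/MP-like cluster led by Ccl8, Car4 and C4b, and lowest, 260 CPM, in a cluster led by Top2a and further genes of cell division. Gclc (66.6 CPM) and Gclm (22.1 CPM) were highest in the Ccl8 cluster, and Srxn1 (322 CPM) in an unnamed one led by Gas6 and Apod. The members therefore peaked in different clusters of the same library. Compared as a class, FAP/MP-like clusters gave log2 ratios of 1.74 for Hmox1 and 1.99 for Srxn1 between d3 polytrauma and d3 fracture, but at d3 fracture that class was 1 cluster of 59 cells led by interferon response genes. Slc7a11 had 0 UMIs in those 59 cells (0 to 5.78 CPM), against 34.0 CPM in the class at d3 polytrauma. Its log2 ratio of 2.85 rests on counting the 0 as 3 UMIs and is not a lower limit. The class left out unnamed clusters that met all 5 FAP/MP markers. At d3 fracture this was the cluster led by Clec3b and Pi16 (151 cells), and at d3 polytrauma the one led by Gas6 and Apod (1850 cells).

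At d0, Hmox1 was uneven among the FAP/MP-like clusters. It was at 1164 CPM (1117 to 1213) in the one led by the interferon-inducible genes Ifi205 and Ifi211, which also had the highest Srxn1 (174 CPM) and Gclm (41.2 CPM) of that library. Its Gclc (79.5 CPM, 67.5 to 92.9) was level with that of the cluster led by Mrgprg (78.9 CPM, 69.3 to 89.4). The other 4 FAP/MP-like clusters had 335 to 697 CPM of Hmox1, the tenocyte-like ones 239 and 379 CPM, and the pericyte-like one 123 CPM. Txnrd1 was about equally high in pericyte-like cells (169 CPM) and in the Ifi205 cluster (165 CPM). An unnamed d0 cluster led by Stra6, Cldn1 and Cp had the highest Slc7a11 (43.8 CPM, 18 UMIs) and Nqo1 (31.7 CPM, 13 UMIs). At d5, Gclm lay above all d3 clusters of the same injury in 7 of 7 fracture and 11 of 11 polytrauma clusters. Clusters of a library share its barcode set, which cannot be told apart from day, so they do not repeat the comparison. In the d5 polytrauma chondrocyte-like cluster, 60.1% of cells carried a barcode that another library also held with more than 10% as many UMIs, and Nqo1 was 21 CPM with and 21.4 CPM without them.

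**Figure D3:**
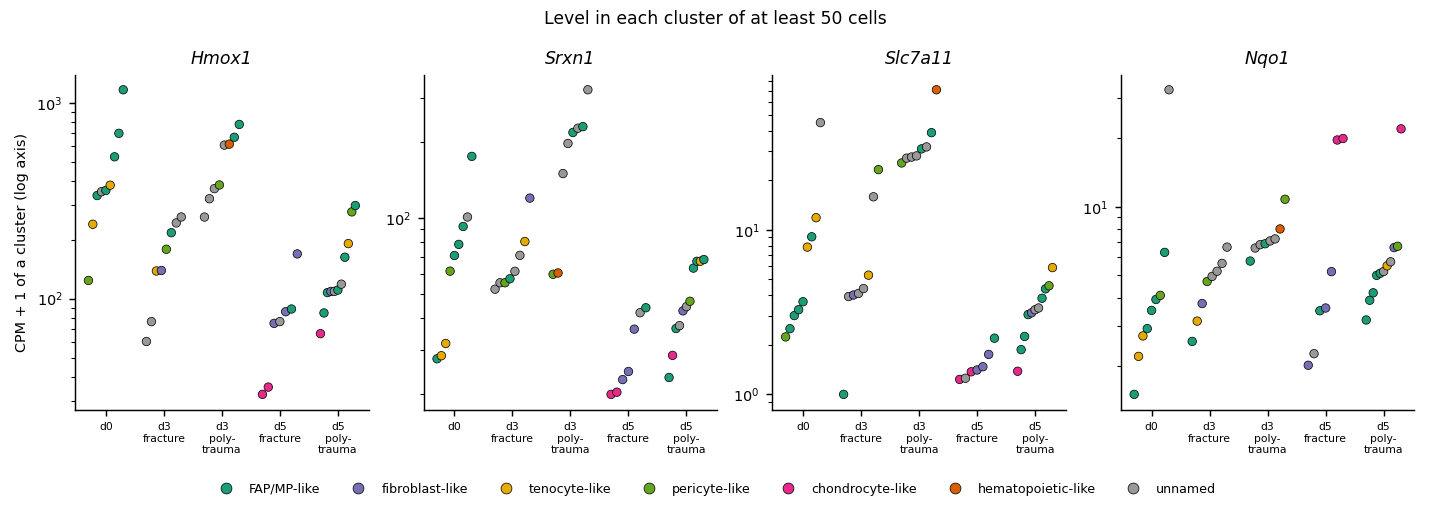
Level of Hmox1, Srxn1, Slc7a11 and Nqo1 in every cluster of at least 50 cells by library, as CPM + 1 on a log axis, each point being 1 cluster, ordered by level and coloured by its name. By point values, drawn without intervals, all 8 d3 polytrauma clusters lie above all d3 fracture clusters for Slc7a11 and 7 of 8 for Hmox1. For Nqo1 the chondrocyte-like clusters at d5 (18.7, 19.0 and 21 CPM) stand apart from the others of their libraries.

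Shares of cells with Hmox1 were compared at equal depth. With 2000 UMIs drawn from each cell, 35.2% of d0 cells had at least 1 Hmox1 UMI (33.7 to 36.7), 14.8% at d3 fracture (13.9 to 15.8), 44.2% at d3 polytrauma (42.9 to 45.5), 10.6% at d5 fracture (9.09 to 12.3) and 17.7% at d5 polytrauma (17.0 to 18.4). The share was thus higher at d3 polytrauma than at d0, and so was the mean in the same thinned cells, 1.07 against 0.936 Hmox1 UMIs per cell. Only the level summed over all kept cells, in which deeper cells weigh more, was higher at d0. Without thinning the shares were 44.6, 58.2, 85.1, 59.7 and 59.5%, at median depths of 3640, 17963, 15688, 34949 and 15753 UMIs. Free RNA can give a UMI to a cell that does not express the gene, and no cell type here is known to lack Hmox1. The cluster with the lowest thinned share was pericyte-like at d0 (14.0%, median 4446 UMIs) and d3 polytrauma (26.4%, median 5746 UMIs), and chondrocyte-like at d5 fracture (5.38%, median 43982 UMIs) and d5 polytrauma (5.63%, median 15475 UMIs). These medians cover only cells with at least 2000 UMIs. Over all 351 kept cells of the d5 polytrauma chondrocyte-like cluster the median was 1504 UMIs, so most of them were left out of its share. At d3 fracture the pericyte-like cluster (10.4%, 5.30 to 17.8) and the one led by Ass1 and Il11 (10.5%, 9.09 to 12.1) had the lowest shares. A library's share lies above its lowest cluster by construction, so free RNA was not tested by these values.

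Cells with at least 3 Hmox1 UMIs of 2000 made up 11.1% at d0, 1.31% at d3 fracture, 13.4% at d3 polytrauma, 0.765% at d5 fracture and 2.01% at d5 polytrauma. The top 10% of cells held 63.0% of its thinned UMIs at d0, 77.8% at d3 fracture, 53.7% at d3 polytrauma, 95.8% at d5 fracture and 72.4% at d5 polytrauma. Where fewer cells had a UMI, the top 10% hold more of them by arithmetic, so these values do not show how concentrated Hmox1 was. For Srxn1 the thinned shares were 10.6, 12.2, 32.1, 5.35 and 7.92% in the order d0, d3 fracture, d3 polytrauma, d5 fracture, d5 polytrauma. For Slc7a11 they were 0.720, 0.634, 4.56, 0.0695 and 0.425%. Both were most widely detected at d3 polytrauma.

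Cells rich in Hmox1 also held more of the other members. At d3 polytrauma, cells with at least 3 Hmox1 UMIs had 3.54-fold the Slc7a11 of cells with none (2.72 to 4.62), 65.9 against 18.6 CPM. The folds were 2.42 for Gclm (1.68 to 3.45), 2.11 for Gclc (1.63 to 2.70), 1.99 for Nqo1 (1.12 to 3.42), 1.44 for Txnrd1 (1.22 to 1.70), 1.39 for Srxn1 (1.25 to 1.54) and 1.22 for Prdx1 (1.17 to 1.28). All 7 intervals lay above 1 there, against 6 at d0, 6 at d5 polytrauma, 1 at d5 fracture and 0 at d3 fracture, where high cells were few. Srxn1 had the wider contrast at d0, 3.86-fold (3.14 to 4.75, 180 against 46.6 CPM), and at d5 polytrauma, 2.76-fold (2.06 to 3.64).

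Genes outside the response served as comparators. At d3 polytrauma the same ratio was 0.992 for Sod1 (0.819 to 1.20), which encodes cytosolic superoxide dismutase, and 0.921 for Hmox2 (0.683 to 1.23), and at d0 1.03 (0.827 to 1.26) and 0.569 (0.324 to 0.937). Other genes outside the member list were higher in Hmox1-rich cells: Atf4 was 1.26-fold at d3 polytrauma (1.16 to 1.36) and 1.48-fold at d0 (1.36 to 1.61), and Slc3a2, the partner chain of Slc7a11, 1.31-fold (1.20 to 1.43) and 1.79-fold (1.57 to 2.04). The contrast was therefore not confined to the members. The digestion-responsive Fos was 0.471-fold at d0 (0.451 to 0.491), 2.28-fold at d3 fracture (2.06 to 2.52) and 0.832-fold at d3 polytrauma (0.767 to 0.903), and Hspa1a 1.18-fold, 2.66-fold and 0.824-fold. Ftl1 was 1.68-fold higher at d3 polytrauma (1.65 to 1.71) and 2.02-fold at d0 (1.97 to 2.07). The contrast was also present inside clusters: of 7 d3 polytrauma clusters with enough cells, Slc7a11, Prdx1, Gclc and Gclm were higher in Hmox1-rich cells in 7, with intervals above 1 in 6, 6, 4 and 3. Srxn1 was higher in 6, with 5 intervals above 1, Txnrd1 in 6, with 2, and Nqo1 in 4, with 0. Of 5 d0 clusters, 4 had intervals above 1 for Txnrd1, 3 for each of Srxn1 and Prdx1, 2 for Gclc, 1 for Slc7a11 and 0 for Gclm and Nqo1. Gclc was higher in Hmox1-rich cells in 3 of these 5. Of 5 d5 polytrauma clusters, 2 had intervals above 1 for each of Srxn1, Gclm and Gclc, 1 for Slc7a11 and 0 for Txnrd1 and Nqo1, and Prdx1 had 1 above and 1 below. Cells of 1 library are not replicates, and these intervals cover counting error only.

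**Figure D4:**
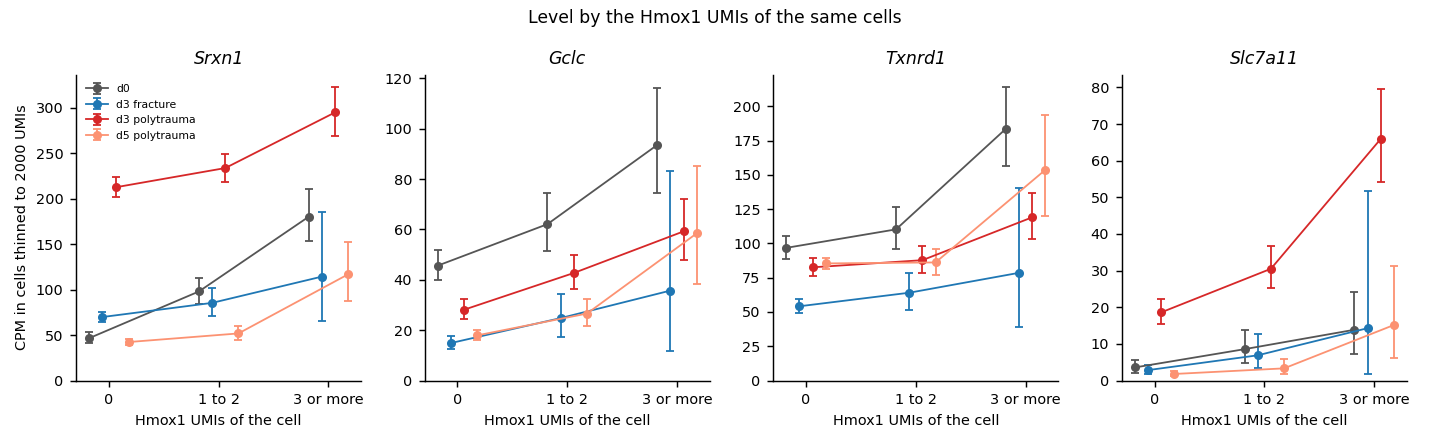
Level of Srxn1, Gclc, Txnrd1 and Slc7a11, in CPM, in cells with 0, 1 to 2, and 3 or more Hmox1 UMIs after 2000 UMIs were drawn per cell, with 95% exact Poisson intervals, for 4 libraries (d5 fracture, with few cells in the top class, is not drawn). At d3 polytrauma Slc7a11 goes from 18.6 CPM in cells without Hmox1 to 65.9 CPM in the richest cells, and at d0 Srxn1 from 46.6 to 180 CPM.

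The genes whose log2(CPM + 1) over the 43 cluster profiles was most like that of Hmox1 were Ftl1 (Pearson r = 0.793), Igf2bp2 (0.786), Cyb5a (0.781), Ly96 (0.775), Sqstm1 (0.759), Adora2b (0.757), Tgif1 (0.753), B4galt5 (0.752), Zc3h12a (0.751) and Cdk2ap2 (0.750), out of 13016 genes. Clusters of a library share its depth and preparation, so these values are a description. Of the members, Srxn1 (0.676) and Slc7a11 (0.661) were nearest, followed by Gclc (0.50), Txnrd1 (0.310) and Prdx1 (0.304). Nqo1 (-0.17) and Gclm (-0.25) did not follow Hmox1. Inside libraries the values differed. For Srxn1, r with Hmox1 over clusters was 0.538 at d0, -0.11 at d3 fracture, 0.103 at d3 polytrauma, 0.677 at d5 fracture and 0.70 at d5 polytrauma, and for Slc7a11 it was 0.012, 0.145, 0.526, 0.590 and 0.807. For Gclm it was 0.925 at d0 and 0.811 at d5 polytrauma, but -0.17 at d3 fracture. The pooled values thus rest in part on differences between libraries.

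Nfe2l2, which encodes NRF2 itself, did not reach 2-fold between the d3 libraries. It was at 166 CPM at d0, 86.8 at d3 fracture, 136 at d3 polytrauma, 109 at d5 fracture and 112 at d5 polytrauma, a ratio of 1.57 between polytrauma and fracture at d3 (1.53 to 1.62). Keap1 was at 21.96, 24.1, 21.4, 41.3 and 48.5 CPM and Bach1 at 55.3, 53.4, 54.5, 129 and 117 CPM in the same order. Over the cluster profiles, r of Nfe2l2 with Hmox1 was 0.680, close to that of Srxn1 (0.676). Nfe2l2 in Hmox1-rich cells was 2.01-fold its level in cells without Hmox1 at d0 (1.72 to 2.33). This fold was 1.73 at d3 fracture (1.08 to 2.63) and 1.53 at d3 polytrauma (1.35 to 1.73). At d5 it was 1.77 after polytrauma (1.42 to 2.19) and 2.10 after fracture, where the interval held 1 (0.677 to 4.96). Of the 10 regulators, none was 2-fold higher at d3 polytrauma than at d3 fracture and 1, the related repressor Bach2, was lower (0.452, 3.71 against 8.20 CPM). In d3 fracture against d0, the small MAF genes Mafk and Maff were 12.2-fold and 8.98-fold lower, Sqstm1 was 2.75-fold lower and Bach2 2.92-fold higher. At d5 against d3, 4 of 10 regulators were higher after fracture (Nfe2l1, Maff, Bach1 and Cul3) and none lower. After polytrauma 5 were higher, Keap1 and Bach1 among them, and 1, Sqstm1, lower. Of all genes compared, 35.9% were higher and 4.22% lower after fracture, and 26.6% and 3.56% after polytrauma. The 4 of 10 after fracture thus lay near the share of all genes.

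Across the 9 pathway lists, which hold 105 genes besides the members, 7 of the 100 genes compared were higher and 3 lower at d3 polytrauma than at d3 fracture, 7% and 3%. Of all genes compared, 1.91% were higher and 1.35% lower. The lists were chosen with earlier results of these data known, and a gene can be in more than 1 list. The ATF4 list for amino acid stress had 4 of 14 higher and none lower, with a median log2 ratio of 0.47. Both values include the member Slc7a11, which was chosen with measured values in view. Beside Slc7a11 the higher genes of this list were the glutathione-degrading enzyme Chac1 (10.8 against 2.19 CPM), the pseudokinase Trib3 (7.64 against 2.34 CPM) and Sesn2 (21.6 against 9.47 CPM). In the glutathione list of 20, Chac1, Gsta4 (9.54 against 3.16 CPM) and Gstm1 (61.2 against 22.6 CPM), both glutathione transferases, were higher of 19 compared. Of 9 genes of heme and iron handling, 12 of the thioredoxin and peroxiredoxin list and 14 of NADPH and quinone or aldehyde detoxification, none passed 2-fold. These lists do not hold Hmox1 or Srxn1, so their counts cannot be set beside that of the ATF4 list. Of the hypoxia list, 1 of 9 was higher, Egln3 (12.7 against 2.78 CPM). Of superoxide and peroxide enzymes outside NRF2, Sod2, of mitochondria, was higher (254 against 127 CPM), while Sod1 (82.7 against 80.9 CPM) and the catalase gene Cat (20.1 against 21.6 CPM) were close in both libraries. Fos and Egr1 of the immediate early list were lower, 2 of 12.

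By d5 of polytrauma 8 of 14 ATF4 genes, Slc7a11 among them, were lower than at d3, and none was higher. Chac1 was at 1.19 CPM, Trib3 at 0.984 CPM and Ddit4 at 37.1 against 171 CPM. The high values of the d3 polytrauma library enter this comparison too. Of all genes compared in d5 against d3 polytrauma, 3.56% were lower and 26.6% higher. In the glutathione list 8 of 20 were lower, among them Gstp1 (38.3 against 164 CPM), Gsta4 (2.55 CPM) and Gstm1 (19.5 CPM), and 1 was higher, the exporter Abcc4 (6.46 against 2.78 CPM, named after its value was seen). In the heme and iron list Ftl1 and Fth1 were lower and the iron exporter Slc40a1 was higher (5.94 against 1.27 CPM), while in the hypoxia list 4 of 9 were lower, among them Ankrd37 and Ndrg1. The d5 fracture library had more Slc40a1 (30.3 CPM) than d5 polytrauma, where it was lower along with Gpx3 (326 against 1345 CPM), the secreted glutathione peroxidase, and Mgst3. Against d0, the d3 fracture library had less Gstm1 (22.6 against 579 CPM), Osgin1 (1.38 against 23.8 CPM) and Ephx1 (3.23 against 46.7 CPM), and more of the glutathione reductase Gsr (31.5 against 8.72 CPM) and of the mitochondrial and peroxisomal peroxiredoxin Prdx5 (526 against 198 CPM). Over the lists, 27% of genes were then lower and 21% higher, beside 30% and 11.8% of all genes.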

How the data were processed

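The authors deposited, for each of 5 libraries, UMI counts per gene and cell as a sparse matrix, made with Cell Ranger (3.1.0 in the matrix headers) and mm10, and the submitters' notes also name Seurat 3.1.2. The study names the Chromium 3' v2 kit for its libraries. As named here, however, the d0 and d3 libraries drew on 1 set of cell barcodes and the d5 libraries on another. The counts were used as deposited. Cells with 350 to 8000 genes, under 20% mitochondrial UMIs and at least 1000 UMIs were kept, 29831 of 34439 barcodes. The UMI minimum removed 284 to 735 cells per library. Counts were summed per library and divided by the library total (CPM), with exact Poisson intervals and exact conditional intervals of ratios at 95%. PCR duplicates were collapsed by UMI, and intervals cover counting error only. With 1 library per condition no test was made. A gene counted as higher or lower past 2-fold if it had at least 5 CPM in 1 of both libraries.

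Each library was clustered separately (scanpy 1.11.5, 2000 variable genes without the members and pathway lists, 20 principal components, Leiden resolution 0.5), and a name from the marker lists required at least 3 markers to be met. A name was withheld where a class other than fibroblast met a larger share of its markers. It was also withheld where another class had more markers among the 10 leading genes, and from shallow clusters without a marker among these. Of 46 clusters, 12 stayed unnamed, some of which met all 5 FAP/MP markers. Scrublet's automatic threshold marked 0 to 4 cells per library and had not worked, so doublets were kept in the values given, and the highest-scoring 17 to 1141 cells were removed as an alternative. Shares of cells were computed after 2000 UMIs were drawn from each cell. Libraries shared 405 to 525 barcodes among d0 and the d3 libraries, 944 between the d5 libraries and 0 to 3 across these sets.

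Python 3.11.15, numpy 2.4.6, scipy 1.17.1, pandas 2.3.3 and igraph 0.11.9 were used, and the ratio and interval steps were tested on simulated data. Gene positions came from the GRCm38 annotation, in which 30934 of 31055 identifiers were found, and promoter windows from RefSeq (GRCm38.p6), which held 6 of the 8 members. The genes named are all members, 6 comparators (Hmox2, Nfe2l2, Keap1, Bach1, Sod1 and Cat), up to 4 genes per pathway list and comparison with the largest change, and the 10 genes most like Hmox1 over clusters. The members and lists were chosen with earlier results of these data known. Alternatives covered scaling, cell filters, doublets, thinning, fold and level thresholds, and the conditions as deposited.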

Additional observations from a re-analysis of the deposited data

Results flagged for a closer look

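Members whose ratios ran in opposite directions in the arms of the experiment are given here, and the difference between the arms was not tested, since each arm was 1 library. From d3 to d5, the Nqo1 ratio was 1.83 after fracture (1.58 to 2.13) and 0.744 after polytrauma (0.670 to 0.827). Between polytrauma and fracture, the Nqo1 ratio was 1.57 at d3 (1.37 to 1.79) and 0.635 at d5 (0.561 to 0.721). Both of these rest on the d5 fracture library, in which 45.2% and 28.8% of the Nqo1 UMIs came from the chondrocyte-like clusters, and without such clusters the d5 against d3 fracture log2 ratio was -0.62 and the d5 polytrauma against d5 fracture one 0.76.

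The Gclc ratio from d3 to d5 was 1.39 after fracture (1.29 to 1.505) and 0.724 after polytrauma (0.691 to 0.758). With median-of-ratios scaling the fracture ratio was -0.26 on the log2 scale, so that the arms no longer pointed in opposite directions.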

How the results depend on the processing

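No paired analysis was possible because each condition was 1 library. Among the recomputed counts of members past 2-fold, 121 stayed within 1.5 times the value given and 19 did not, and the cause was not tested. The ratios of single members were less stable. Of those recomputed, 291 were counted as the same, 142 as moved and 7 as reversed, the 7 under the deposited labels. With FAP/MP-like clusters only, 36 moved and 4 did not, and with median-of-ratios scaling 34 and 6. With the mean of single-cell CPM 20 moved and 20 did not. With median-of-ratios scaling, which moved the median log2 ratio of all genes to 0.26 for d3 fracture against d0, -0.19 for d5 against d3 fracture, 0.19 for d5 polytrauma against d5 fracture and -0.03 for d5 against d3 polytrauma, 1 member (Prdx1) was higher at d3 fracture than d0, 2 (Srxn1 and Prdx1) lower in d5 against d3 fracture, and 1 (Hmox1) higher in d5 polytrauma against d5 fracture. In cells thinned to 2000 UMIs, 2 members (Nqo1 and Gclm) were higher in d5 against d3 fracture and 5 (Nqo1 and Gclc in addition) in d3 polytrauma against d3 fracture. At 1.5-fold, 2 were higher and 2 lower in d5 against d3 fracture, 7 higher in d3 polytrauma against d3 fracture, and 2 higher and 1 lower in d5 polytrauma against d5 fracture. At 3-fold, 0 were lower in d5 against d3 fracture.

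Under the deposited labels, 3 members were higher and 0 lower in d5 against d3 fracture, 1 higher and 1 lower in d3 polytrauma against d3 fracture, 1 higher and 3 lower in d5 polytrauma against d5 fracture, and 0 higher and 0 lower in d5 against d3 polytrauma. The log2 ratio of Srxn1 in d5 against d3 fracture became 1.64. For d3 polytrauma against d3 fracture, those of Hmox1, Srxn1 and Slc7a11 became -0.19, -1.28 and -2.58, and for d5 against d3 polytrauma 0.81, 0.71 and 2.13. No other alternative reversed a member past 2-fold. Over those others, apart from the fit to FAP/MP-like clusters, the d3 polytrauma against d3 fracture log2 ratio ran from 2.19 to 2.30 for Hmox1, from 1.58 to 1.67 for Srxn1 and from 3.01 to 3.17 for Slc7a11. Where the ratio given was below 2-fold, direction could depend on the setting, and the ranges that follow also leave out the fit to FAP/MP-like clusters. It did for Srxn1 (-0.08 to 0.52) and Slc7a11 (-0.74 to 0.06) in d3 fracture against d0, and for Prdx1 (-0.03 to 0.01) in d3 polytrauma against d3 fracture. In d5 against d3 fracture it did for Hmox1 (-0.93 to 0.09), Nqo1 (-0.62 to 1.08), Gclc (-0.26 to 0.56) and Txnrd1 (-0.26 to 0.48). The same held for Nqo1 (-0.75 to 0.76) and Gclc (-0.08 to 0.20) in d5 polytrauma against d5 fracture, and for Txnrd1 in d5 against d3 polytrauma (-0.38 to 0.12).

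Thinned to 1000 UMIs, the shares of cells with Hmox1 were 24.2, 8.41, 30.0, 6.74 and 10.7% for d0, d3 fracture, d3 polytrauma, d5 fracture and d5 polytrauma. Depth limits Nqo1 and Slc7a11 most, with 56 and 84 UMIs at d0 and 29 of Slc7a11 at d5 fracture.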

Other observations

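In the d5 polytrauma library a small cluster of 29 cells led by Lyz2, C1qa and Pf4, genes of macrophages, had 1742 CPM of Hmox1, against 298 CPM in the highest of the larger clusters, the FAP/MP-like one led by Penk and Iigp1. In the 239 hematopoietic-like cells of d3 polytrauma, led by Cd74 and Lyz2, Hmox1 was 614 CPM and Slc7a11 70.0 CPM, the highest Slc7a11 of that library.

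Pericyte-like cells of d5 polytrauma, 106 cells led by Rgs5, had 74.3 CPM of Gclc and 82.8 CPM of Gclm, the highest among its clusters of at least 50 cells. The 29-cell cluster had 52.5 and 101 CPM. The pericyte-like clusters of d3 fracture and d3 polytrauma had 38.3 and 58.8 CPM of Gclc and 9.88 and 9.80 CPM of Gclm.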
